A study of Drosophila melanogaster with 3 samples.

Results

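The genes described here are 10 regulators of programmed cell death in Drosophila melanogaster: the activators rpr, hid and grim, the inhibitors Diap1 and Diap2, the caspases Dronc, Dredd, Drice and Dcp-1, and the adaptor Dark. The rule that picks them uses gene symbols and no measured value, though it was written with earlier results of these data known, and all 10 were found among the 17278 FlyBase identifiers of the deposited table. RNA was sequenced from salivary glands of third-instar (L3) larvae kept at 25 °C, with 50 dissected glands in each sample and poly(A) RNA as input. The 3 libraries form 1 group of control glands, numbered replicates 1, 2 and 3 as in their titles. The titles name an Oregon wild-type stock and the genotype field says yw, so the strain is uncertain, and no mutant or treated glands were analysed here. The labels do not state whether the libraries represent separate cultures, so their spread, and every p-value over them, may reflect technical variation alone.

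In flies, cell death is held in check by inhibitor of apoptosis proteins (IAPs), which bind caspases, the proteases that take a dying cell apart. Reaper (rpr), Hid and Grim bind the IAP Diap1 through a short motif at their amino terminus and release the caspases it holds. The initiator caspase Dronc is then activated on a scaffold of the adaptor Dark and cleaves the effector caspases Drice and Dcp-1. Dredd, another initiator caspase, and the IAP Diap2 act mainly in the IMD pathway of innate immunity. Larval salivary glands are destroyed during metamorphosis, after pulses of the steroid hormone ecdysone, and rpr and hid are known to be induced and Diap1 lowered in the gland before that. The larval glands measured here precede this stage.

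Levels are in FPKM, the authors' fragment counts scaled for the length of each gene and the depth of each library, so that different genes can be compared within a library. The values could be converted back to whole fragments, within 0.01 of a whole number, for all 10 genes. The libraries held 1490261 to 1571525 fragments in all, of which 678717 to 1185542 lay outside rRNA pseudogenes. The depth behind the FPKM, recovered from the values, was lower still, at 499875, 727436 and 945562 in replicates 1, 2 and 3. All levels and the limit of 1 FPKM rest on that depth. Over the 3 libraries, the 10 genes together had 1013 fragments, and Diap1 alone had 577 of them. Salivary gland markers were present as the label says: all 10 markers were detected, that is, at 1 FPKM or more in each library, with sums of 732556 to 983307 FPKM. Fat body markers were present too (6 of 7 detected, summed level 2882 to 4273 FPKM, Yp1 at 0), whereas hemocyte (2 of 6, 14.7 to 35.8 FPKM), muscle (3 of 6, 29.4 to 54.2 FPKM) and imaginal disc markers (2 of 6, 14.1 to 19.3 FPKM) were low.

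RNA of inhibitors and caspases of the death pathway was present in these gland samples. Of the activators rpr, hid and grim, only rpr passed the limit for detection, with 2 fragments in replicate 3. A gene was called detected if each of the 3 libraries gave it at least 1 FPKM. Of the 10 genes, 8 were detected, beside 33.1% of all genes and 40.1% of protein-coding genes, and hid and grim were not. Without replicate 1 hid passed too (9 of 10), and with at least 3 fragments required in each library rpr and Dcp-1 did not (6 of 10). The median of their mean levels was 3.48 on the log2(FPKM + 1) scale, against 0.37 for all genes, 0.73 for protein-coding genes and 3.13 for the 7129 genes of at least 1 FPKM on average. grim was listed at 0 in every library, as were 32.3% of protein-coding genes. In these bulk samples, fewer cells with a transcript and less of it per cell cannot be told apart. RNA of the fat body markers may come from other tissue in the samples. Neither its source nor the part of other tissue in these levels was tested.

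**Figure D1:**
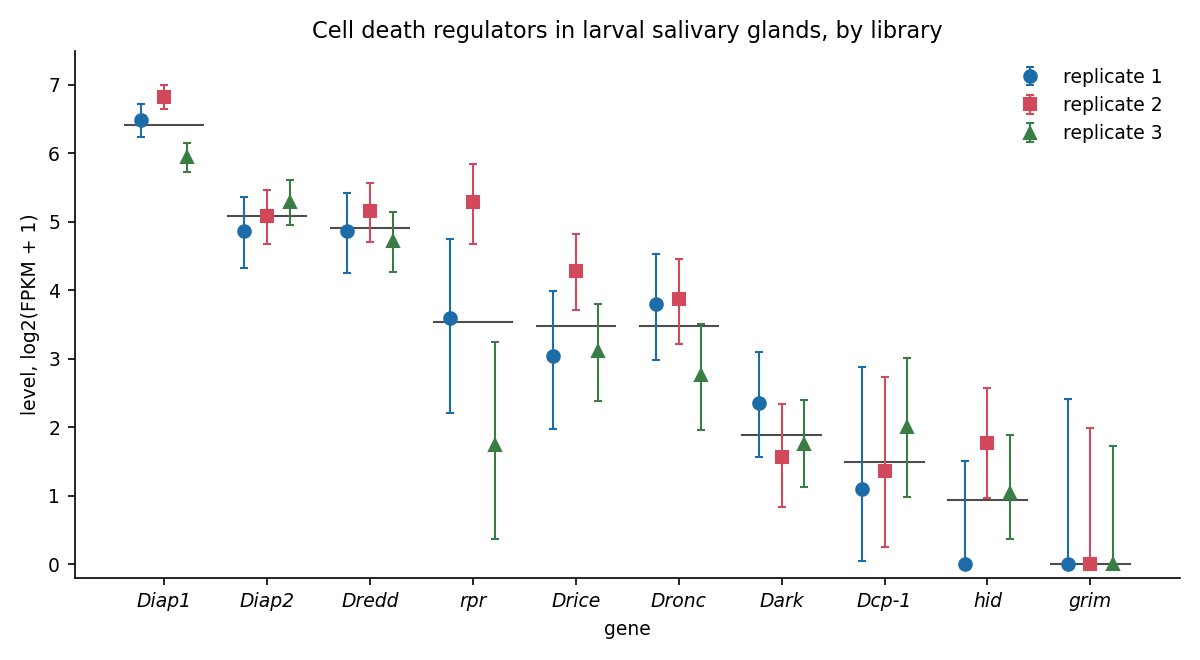
Level of each gene as log2(FPKM + 1) in replicates 1, 2 and 3 (points), with 95% exact Poisson intervals of the fragment count (whiskers, counting error only) and the mean of the 3 libraries (horizontal line). Genes are ordered by mean FPKM, from Diap1, with a mean of 87.3 FPKM, to grim, at 0. rpr spans the widest range, with replicate 2 above the others.

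Because counting was unstranded by the name of the deposited table, exons shared with another gene on either strand make a level uncertain. In the Ensembl BDGP6.54 annotation, 6 of the 10 genes shared exon bases with another gene. grim, a gene of 1 exon block, shared 75.9% of its 1699 exon bases, of which 541 lie in lncRNA:CR45975 on the same strand and 749 in asRNA:CR45974 on the opposite strand, so that 409 bases are its own. Dark shared 56.9% of its 4883 exon bases with the antisense RNA gene asRNA:CR44390. For Dcp-1 the share was 13.7%, with the opposite-strand gene pita, for Diap1 11.0%, with asRNA:CR45889, and for Dredd 4.27%, with mir-9372 and Mybbp1A among others. Diap2 shared a single base, with bug. rpr, hid, Dronc and Drice shared none.

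Genes whose exons are wholly shared were mostly listed at 0. Of the 391 protein-coding genes whose exon bases are all shared, 384 (98.2%) were at 0 in every library, against 35.5% of the 9099 that share none. In the class that holds grim and Dark, the 774 genes with at least 50% of their bases shared, 77.6% were at 0, against 29.6% of the genes below that share. That class includes the 391 wholly shared genes, nearly all at 0. Its 77.6% therefore overstates the share at 0 among partly shared genes such as grim and Dark. For grim, an absent transcript and uncounted shared bases cannot be told apart here. A count of 0 allows up to 3 fragments, which for grim is 3.53, 2.43 and 1.87 FPKM in replicates 1, 2 and 3 over all its exon bases, and 14.7, 10.1 and 7.76 FPKM if only its 409 unshared bases were counted. Both RNAs that overlap grim were also listed at 0, and all of their bases are shared with it. If fragments in shared bases were left uncounted, the levels of Dark and Dcp-1 are understated too.

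**Figure D2:**
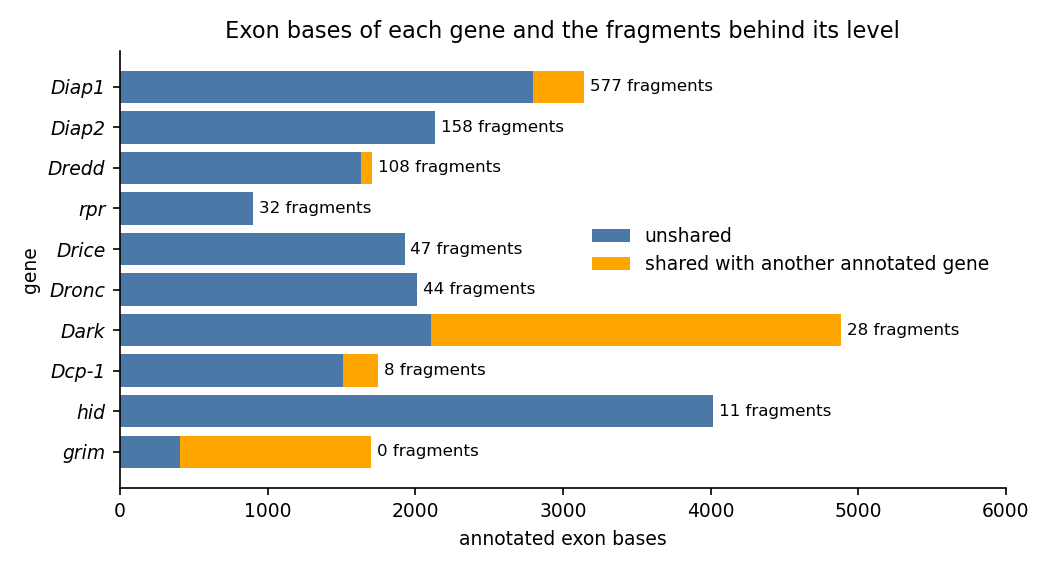
Annotated exon bases of each gene (bar length), split into bases found in no other annotated gene and bases shared with another gene on either strand. Labels give the fragments summed over the 3 libraries; grim, with 0 fragments, has 409 unshared bases, and Dark has 2104.

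Among the IAP antagonists, rpr had a higher mean level than hid, and grim could not be placed. The 0 of grim allows 14.7, 10.1 and 7.76 FPKM in replicates 1, 2 and 3 over its unshared bases. By that limit, rpr is shown to be above grim only in replicate 2. rpr (FBgn0011706, 3L 18397535 to 18398435, minus strand, 1 exon block) had 11.1, 38.1 and 2.35 FPKM in replicates 1, 2 and 3, from 5, 25 and 2 fragments. Its mean was 17.2 ± 18.7 FPKM (SD, n = 3), an SD larger than the mean, with replicate 2 high and replicate 3 low. hid (FBgn0003997, 3L 18167745 to 18185641, minus strand, 4 exon blocks) had 0, 2.39 and 1.05 FPKM, from 0, 7 and 4 fragments, and a mean of 1.15 ± 1.20 FPKM (SD, n = 3). Replicate 1, without a fragment of hid, allows up to 1.49 FPKM, so it is not shown to be below replicate 3.

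By listed FPKM, rpr was above hid in each library. In replicate 3 this rested on 2 fragments of rpr and 4 of hid. Their 95% counting intervals overlapped there (0.284 to 8.48 and 0.287 to 2.70 FPKM), so that library does not separate the genes. The difference was 3.60, 3.53 and 0.71 on the log2(FPKM + 1) scale in replicates 1, 2 and 3, and averaged 2.61 ± 1.65 (SD, n = 3; two-sided exact sign-flip permutation p = 0.25). With 3 libraries, 0.25 is the smallest p this test can give, so no pair of genes could pass it. Summed over the 3 libraries, rpr had 13.0 times the fragments of hid per exon base (95% exact interval 6.37 to 28.5, counting error only). In replicate 3 alone the ratio of FPKM was 2.23, outside this interval, which does not cover the spread between libraries. Without replicate 3 the mean difference was 3.56, and without replicate 1 it was 2.12.

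rpr, hid, grim and a further antagonist gene, skl (sickle), lie in 1 stretch of 3L of 272 kb, from 18167745 to 18439942, in BDGP6.54. The table holds 16 genes of this stretch, 8 of them protein-coding. Of the 16, 13 were listed at 0 in every library, and rpr was the 1 gene detected, with 2 fragments in replicate 3. Without replicate 1, hid and CG7320 were at 1 FPKM or more as well. The others above 0 were hid and CG7320, which had 0, 1.36 and 2.09 FPKM from 6 fragments in all. skl, whose exons are not shared, was listed at 0, as were CG5103 and CG13700, the protein-coding genes listed just before grim along the chromosome. The protein-coding genes at 0 were CheA75a, CG5103, CG13700, grim and skl, beside 32.3% of protein-coding genes in the whole table. The other genes at 0 in the stretch are non-coding. The share listed at 0 among all genes was 41.5%, which is not matched to this mix of coding and non-coding genes.

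**Figure D3:**
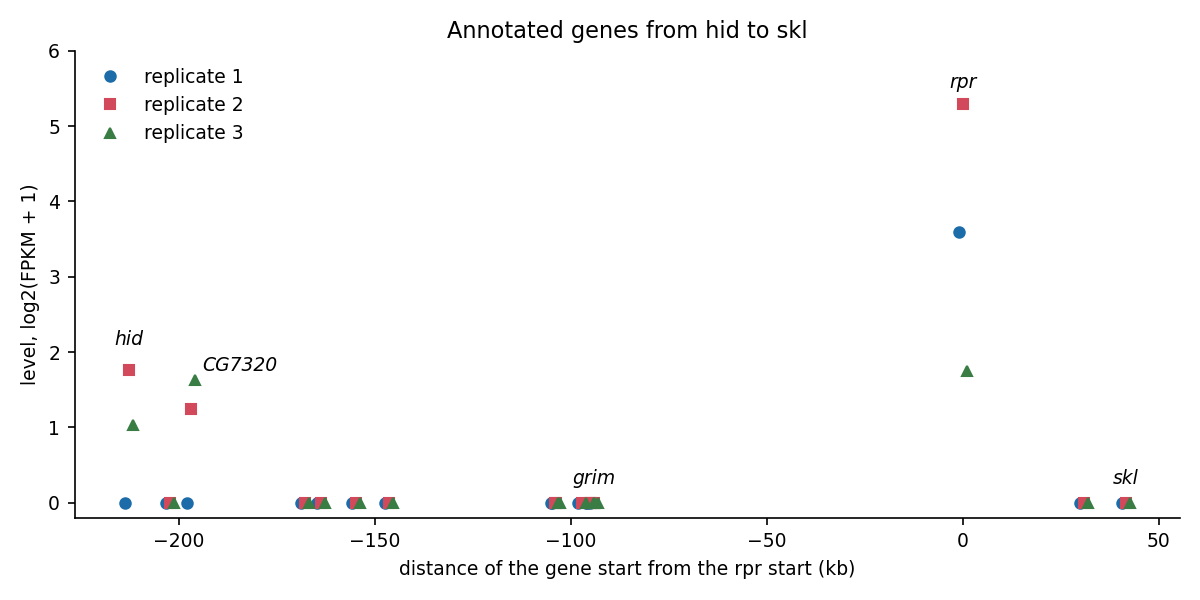
Level, as log2(FPKM + 1), of the 16 annotated genes from hid to skl against the distance of each gene's start from the rpr start in kb, with points for replicates 1, 2 and 3 set slightly apart. Only rpr, hid and CG7320 rise above 0, and only rpr does so in all 3 libraries.

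Of the inhibitors, Diap1 had the highest level among the 10 genes. Diap1 (FBgn0260635, 3L 16038410 to 16051034, minus strand), the ubiquitin ligase that holds Dronc and Drice inactive, had 88.5, 113 and 60.6 FPKM in replicates 1, 2 and 3, from 139, 258 and 180 fragments. The mean of 87.3 ± 26.2 FPKM (SD, n = 3) ranked it 544th of 13829 protein-coding genes. Diap2 (FBgn0015247, 2R 15932170 to 15934825, minus strand) had 28.1, 32.9 and 38.2 FPKM, from 30, 51 and 77 fragments, with a mean of 33.0 ± 5.02 (SD, n = 3). Diap1 was above Diap2 in 3 of 3 libraries and the groups of values did not overlap.

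The difference of Diap1 and Diap2 was 1.34 ± 0.60 on the log2(FPKM + 1) scale (SD, n = 3; exact sign-flip permutation p = 0.25). Summed over the 3 libraries, Diap1 had 2.48 times the fragments of Diap2 per exon base (95% exact interval 2.08 to 2.98, counting error only). The ratios of FPKM in replicates 1, 2 and 3 were 3.15, 3.43 and 1.59, all outside this interval. Diap1 made up 75.9%, 77.5% and 61.3% of the summed FPKM of both IAP genes in replicates 1, 2 and 3. Of the 4729 other genes with at least 20 fragments, those near to Diap1 in log2(FPKM + 1) over the 3 libraries included P58IPK, at a Euclidean distance of 0.16, spz at 0.25, Ist1 at 0.33 and CD98hc at 0.37.

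Diap1 also stood above rpr and hid in every library, by an amount that depended on the library. The FPKM of Diap1 was 7.97, 2.96 and 25.8 times that of rpr in replicates 1, 2 and 3. The difference was 2.88 ± 1.33 on the log2(FPKM + 1) scale (SD, n = 3, exact sign-flip permutation p = 0.25), positive in 3 of 3 libraries. With fragments summed over the libraries, the ratio of Diap1 to rpr per exon base was 5.17 (95% exact interval 3.62 to 7.63, counting error only). The ratios of the single libraries all lie outside this interval. Against hid the difference was 5.49 ± 0.87 (SD, n = 3; exact sign-flip permutation p = 0.25) and the ratio of fragments per exon base 67.1 (37.2 to 135). Against the summed FPKM of rpr, hid and grim, with grim at its listed 0, Diap1 was 7.97, 2.78 and 17.8 times as high. The margin was smallest in replicate 2, where rpr was highest, and widest in replicate 3. With 6 antagonist fragments counted in replicate 3 and 5 in replicate 1, the order of these libraries rests on few fragments.

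Of the initiator caspases Dredd and Dronc, Dredd had the higher level. Dredd (FBgn0020381, X 633622 to 635545, minus strand), which cleaves the NF-kappaB factor Relish in the IMD pathway, had 28.1, 34.6 and 25.4 FPKM in replicates 1, 2 and 3, from 24, 43 and 41 fragments. Dronc (FBgn0026404, 3L 9968479 to 9971002, plus strand) had 12.9, 13.6 and 5.77 FPKM, from 13, 20 and 11 fragments. Their means were 29.4 ± 4.74 and 10.8 ± 4.35 FPKM (SD, n = 3), without overlap between the genes' values. Dronc minus Dredd was -1.44 ± 0.47 on the log2(FPKM + 1) scale (SD, n = 3; exact sign-flip permutation p = 0.25), below 0 in each library, and the ratio per exon base was 0.345 (95% exact interval 0.237 to 0.495).

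Dark (FBgn0263864, 2R 17020027 to 17026703, plus strand), the scaffold on which Dronc is activated, had 4.10, 1.97 and 2.38 FPKM, from 10, 7 and 11 fragments. Its mean was 2.82 ± 1.13 FPKM (SD, n = 3), below every value of Dronc. Dark minus Dronc was -1.58 ± 0.66 on the log2(FPKM + 1) scale (SD, n = 3; exact sign-flip permutation p = 0.25). This margin rests on how shared exons were counted. Per exon base, the ratio of Dark to Dronc was 0.263 (95% exact interval 0.157 to 0.431), and per unshared base it was 0.609 (0.365 to 1.0). With unshared bases as the gene length, the difference became -0.62.

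The effector caspases differed as well. Drice (FBgn0019972, 3R 29799658 to 29801584, plus strand) had 7.27, 18.5 and 7.68 FPKM in replicates 1, 2 and 3, from 7, 26 and 14 fragments, with a mean of 11.2 ± 6.40 (SD, n = 3). Dcp-1 (FBgn0010501, 2R 23551313 to 23553547, plus strand) had 1.14, 1.57 and 3.02 FPKM, from 1, 2 and 5 fragments, with a mean of 1.91 ± 0.985 (SD, n = 3). Every value of Drice was above every value of Dcp-1, but the detection of Dcp-1 in replicate 1 rests on a single fragment. Drice minus Dcp-1 was 1.99 ± 0.91 on the log2(FPKM + 1) scale (SD, n = 3; exact sign-flip permutation p = 0.25), and the ratio per exon base was 5.33 (95% exact interval 2.50 to 13.1). With unshared bases as the length it was 4.60 (2.16 to 11.3).

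Drice and its activator Dronc could not be separated. Their difference was 0.01 ± 0.66 on the log2(FPKM + 1) scale (SD, n = 3; exact sign-flip permutation p = 1), higher for Drice in 2 of 3 libraries, and the ratio per exon base was 1.12 (95% exact interval 0.725 to 1.72). The sign changed without replicate 2 (-0.20) and without replicate 3 (-0.17). The Benjamini-Hochberg adjusted p was 1 for this pair and 0.286 for each of the 7 others among the 8 pairs compared.

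By mean FPKM the order was Diap1, Diap2, Dredd, rpr, Drice, Dronc, Dark, Dcp-1, hid and grim. Between neighbours in this order, the mean difference on the log2(FPKM + 1) scale exceeded its own SD for Diap1 over Diap2, for Dronc over Dark (1.58 ± 0.66) and for hid over grim (0.93 ± 0.89), the last with both genes at 0 in replicate 1. With unshared bases as the length, Dark minus Dronc was only -0.62. Over its unshared bases, the 0 of grim allows 14.7, 10.1 and 7.76 FPKM in replicates 1, 2 and 3. These exceed the values of hid, so hid is not shown to be above grim. The other 6 neighbouring pairs differed by less than their SD, among them Diap2 over Dredd (0.17 ± 0.35), Dredd over rpr (1.37 ± 1.56) and rpr over Drice (0.06 ± 1.26). rpr had no fixed place, since it was above Dredd in replicate 2 and below Dronc in the other libraries.

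The libraries are replicates of 1 group, yet several of the genes differed between them by more than counting error. For the 7 genes with at least 20 fragments in all, ratios of FPKM between libraries were given exact counting intervals. Of these genes, rpr reached 20 fragments only through replicate 2 (5, 25 and 2 fragments in replicates 1, 2 and 3). Between replicates 2 and 3, the interval lay above 1 for 4 of the 7: rpr (16.2, 95% interval 4.05 to 142), Drice (2.41, 1.22 to 5.0), Dronc (2.36, 1.08 to 5.46) and Diap1 (1.86, 1.53 to 2.27). Among the 4730 genes of at least 20 fragments, 18.9% lay above 1 by this measure and 19.6% below. The intervals of Dredd (1.36, 0.868 to 2.14), Diap2 (0.861, 0.592 to 1.24) and Dark (0.827, 0.272 to 2.34) contained 1. These intervals compare the libraries, not conditions.

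Between replicates 2 and 1, the interval lay above 1 for rpr (3.44, 1.29 to 11.5), Drice (2.55, 1.08 to 6.96) and Diap1 (1.28, 1.03 to 1.58), beside 9.34% of genes, and below 1 for none of the 7, beside 9.39%. Between replicates 3 and 1 it lay below 1 for Diap1 alone (0.685, 0.546 to 0.860), beside 17.0% of genes, and above 1 for none, beside 14.1%. The scale of the libraries bears on these values. Rescaling to equal sums (TPM), which counts the rRNA pseudogenes, shifted all genes by 0.68 on the log2 scale for replicate 3 over 1, by 0.54 for replicate 2 over 1 and by -0.15 for replicate 2 over 3. As TPM, Diap1 in replicate 3 over 1 turned to 1.10 (0.876 to 1.38), Diap2 lay above 1 there (2.18, 1.41 to 3.44), and Dronc in replicate 2 over 3 no longer excluded 1 (2.13, 0.974 to 4.93). In replicate 2 over 1, Diap2 (1.69, 1.06 to 2.75) and Dredd (1.78, 1.06 to 3.07) then lay above 1. Scaling by median ratios or by fragments outside rRNA pseudogenes changed none of these calls. The ratio of rpr in replicate 2 over 3 was 14.7 (3.66 to 128) as TPM and 17.1 (4.27 to 149) by median ratios.

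**Figure D4:**
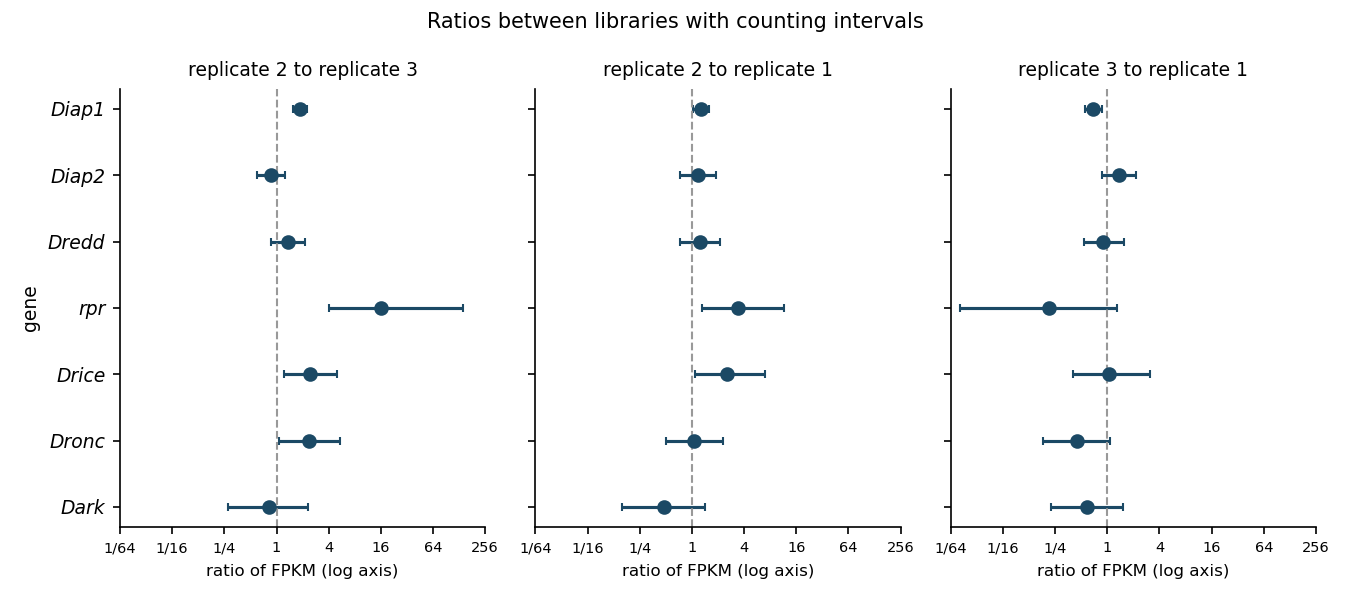
Ratio of FPKM between pairs of libraries (log axis) for the 7 genes with at least 20 fragments; points are ratios, whiskers 95% exact intervals for counting error only, and the dashed line marks 1. In the comparison of replicates 2 and 3, rpr lies at 16.2, and Diap1, Drice and Dronc lie above 1 with intervals that exclude it.

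On the log2(FPKM + 1) scale, rpr ranged over 3.55 between libraries, more than 97.9% of the genes with at least 20 fragments and more than 98.8% of the 1510 genes with 20 to 50 fragments, which rest on similar counts. rpr passed the limit of 20 fragments only through replicate 2, the library where it was high, so its wide range is not independent of that limit. Drice ranged over 1.24, Dronc over 1.11, Diap1 over 0.89 and Dark over 0.78. Diap2 and Dredd had the smallest ranges, 0.43 each, above those of 22.5% and 23.1% of genes. This order depends on the scaling, since as TPM both differed between libraries beyond counting error and Dark, at 0.697 (0.225 to 2.03) for replicate 2 over 1, did not. Of the 7 genes, 4 (rpr, Diap1, Dronc and Dredd) were highest in replicate 2 and lowest in replicate 3, beside 20.1% of genes, but as TPM Diap1 and Dredd were lowest in replicate 1. In the same libraries, in the order of replicates 1, 2 and 3, rRNA pseudogenes took 55.0%, 41.4% and 24.6% of fragments, fat body markers summed to 2882, 4100 and 4273 FPKM, and hemocyte markers to 14.7, 35.8 and 17.6 FPKM. Single markers moved in opposite ways: Fbp1 had 1037, 1468 and 272 FPKM, the same order as rpr, and Lsp1alpha 270, 298 and 979. The hemocyte sum was mostly crq, at 9.83, 26.5 and 14.1 FPKM. The part of these markers and of the rRNA share in the differences between libraries was not tested.

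A wider list of 55 genes around the pathway was described in the same way. Of these, 44 (80.0%) were detected and 3 were listed at 0 in every library. Beside them, 33.1% of all genes and 40.1% of protein-coding genes were detected, and 41.5% and 32.3% were at 0. The counts by role below stand beside the same shares. Some detections rest on few fragments, and 41 genes of the list had at least 3 fragments in every library. Their median of mean levels was 3.74 on the log2(FPKM + 1) scale. The 55 genes were grouped by role, and the highest and lowest of each role are named below with mean FPKM ± SD (n = 3).

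Other IAP genes and antagonists held 3 detected genes of 5. Prx4 (Jafrac2), a peroxiredoxin that competes for Diap1 when it leaves the endoplasmic reticulum of dying cells, had 89.7 ± 47.4 FPKM (78.8, 48.7 and 142 in replicates 1, 2 and 3, above Diap1 in replicate 3), and Bruce, a large ubiquitin-conjugating enzyme with an IAP repeat, had 14.5 ± 4.02. skl was at 0. Of 3 further caspases, Strica was detected at 20.4 ± 9.32 FPKM. Decay had 2.09 ± 1.93 FPKM, from 6 fragments, and Damm was listed at 0 with 29.6% of its exon bases shared. By mean FPKM, Dredd and Strica stood above the other caspase genes, a comparison made without a test.

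The genes that act beside Dark and Dronc were all detected. eIF3m (Tango7), a translation initiation factor subunit also known to act with the Dronc apoptosome, had 187 ± 15.0 FPKM, and the cytochrome c gene Cyt-c-p had 45.8 ± 14.2. Cyt-c-d, the testis-enriched cytochrome c gene, had 1.77 ± 0.573 FPKM from 1 fragment in each library. In the Bcl-2 family, Debcl had 12.4 ± 4.49 FPKM. Buffy had 17.3, 64.9 and 3.06 FPKM in replicates 1, 2 and 3, the same order of libraries as rpr.

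Genes that set IAP levels or activity were detected in 5 of 5 cases. The ubiquitin-conjugating enzyme gene eff had 97.1 ± 11.9 FPKM, the zinc finger gene crol 31.9 ± 12.1 and the ubiquitin ligase gene Ubr3 9.48 ± 2.89. All 10 IMD pathway genes around Dredd were detected, from the kinase gene IKKbeta at 2.72 ± 0.284 FPKM to Tab2, whose product binds the kinase Tak1, at 56.4 ± 17.0. pirk, an inhibitor of the pathway, followed Tab2 with 37.9, 105 and 1.15 FPKM in replicates 1, 2 and 3. Rel, which encodes the Dredd substrate Relish, had 23.4, 38.5 and 8.46 FPKM. Both were highest in replicate 2 and lowest in replicate 3.

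In p53 and JNK signalling 6 of 8 genes were detected. The JNK kinase gene hep had 24.9 ± 7.47 FPKM, the JNK phosphatase gene puc 18.8 ± 5.62, and egr, the TNF ligand, 1.01 ± 1.35 from 5 fragments. Of 8 genes for caspase targets and DNA fragmentation factors, 5 were detected, with the gelsolin gene Gel at 67.1 ± 27.3 FPKM, Acn at 14.9 ± 2.50 and Drep3 at 0. The engulfment genes were detected in 3 of 3 cases, with the receptor gene drpr, needed for autophagy in dying glands, at 17.6 ± 3.08 FPKM, its adaptor ced-6 at 11.7 ± 5.28 and Ced-12 at 5.05 ± 2.06.

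**Figure D5:**
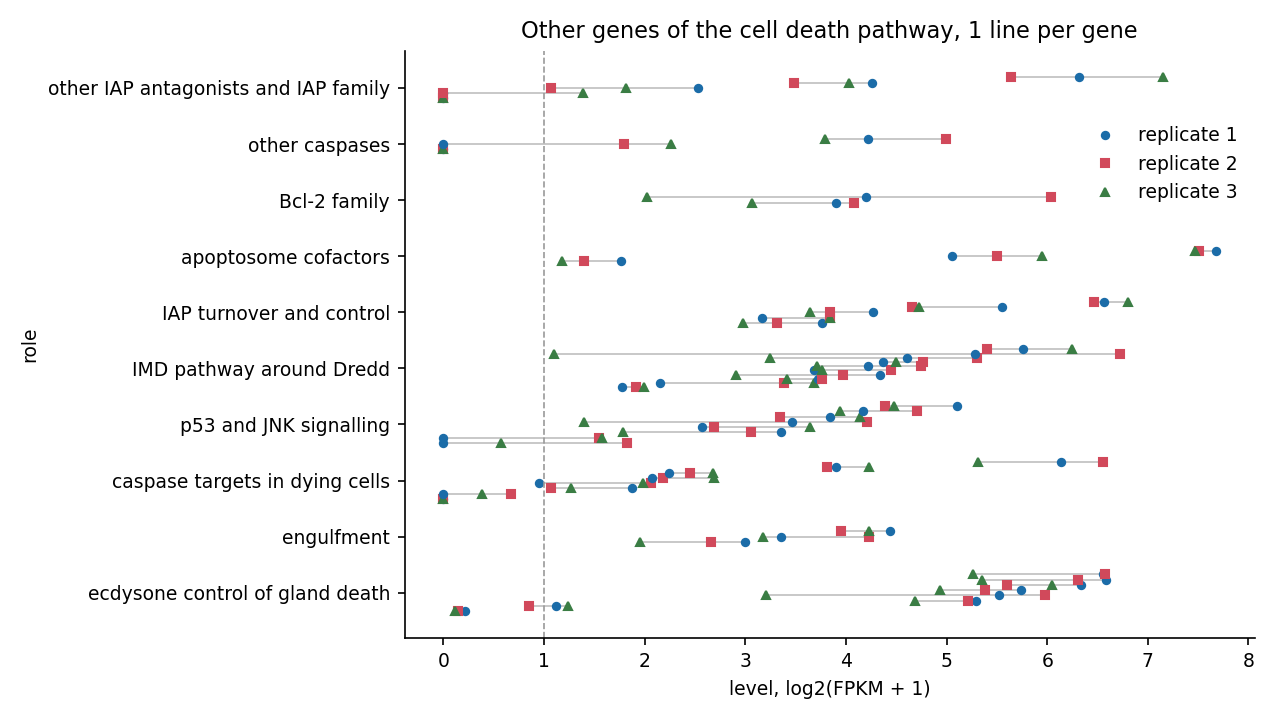
Level, as log2(FPKM + 1), of 55 other genes of the cell death pathway grouped by role, 1 line per gene with points for replicates 1, 2 and 3; the dashed line marks 1 FPKM. The longest lines are pirk and Buffy, with replicate 2 at the high end and replicate 3 at the low end.

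Genes through which ecdysone controls death of the gland were detected in 6 of 8 cases. Eip74EF had 74.8 ± 32.5 FPKM and br, which encodes the Broad factors, 70.9 ± 28.3, both early ecdysone response genes. Eip93F, which encodes the factor E93 that directs the death of glands later in metamorphosis, had 0.158, 0.108 and 0.0834 FPKM in replicates 1, 2 and 3, from 1 fragment in each library. ftz-f1, the competence factor of the prepupal stage, had 1.17, 0.801 and 1.36 FPKM. fkh, whose product keeps rpr and hid off in larval glands, had 79.8, 47.4 and 65.1 FPKM. A link between its level and that of rpr in these libraries was not tested. Eip75B had 44.8, 62.2 and 8.26 FPKM, again highest in replicate 2 and lowest in replicate 3.

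Of the 41 genes of the wider list with at least 20 fragments, 5 ranged over 2 or more on the log2(FPKM + 1) scale between libraries, beside 6.93% of all genes of that depth. These were pirk (5.63), Buffy (4.02), wgn (2.81), Eip75B (2.77) and Rel (2.06), named here after their values were seen. All 5 were highest in replicate 2 and lowest in replicate 3, as was rpr. That order was common among variable genes, since it held for 185 of the 328 genes with such a range (56.4%). Buffy (9, 49 and 3 fragments in replicates 1, 2 and 3) and wgn (13, 33 and 4), like rpr, reached 20 fragments only through replicate 2. With 3 libraries, no correlation between these genes was computed.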

How the data were processed

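Poly(A) RNA libraries were made from 50 glands per sample with a directional kit, per the labels' protocols. The authors deposited FPKM values for 17278 genes in 3 libraries; the submitters' processing notes list HISAT2 and DESeq without versions. Their build, annotation, counter and depth denominator were not given in the sources used here. Of the identifiers, 17142 matched Ensembl release 115 (BDGP6.54), whose coordinates and exons are used. FPKM times summed exon length was divided by the step of each library (98.7% to 98.8% of values above 0 whole within 0.01), giving fragments, from denominators of 499875, 727436 and 945562. A fragment in 2000 bases equals 1.0, 0.687 and 0.529 FPKM in replicates 1, 2 and 3. Recovery was tested on simulated data. No count model was fitted, since there is 1 group.

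Pairs of genes were compared on log2(FPKM + 1), pseudocount 1, which understates ratios of low genes, by a two-sided exact sign-flip test over libraries with Benjamini-Hochberg adjustment over 8 pairs. Ratios of fragments have 95% exact conditional binomial intervals. Those between genes use fragments summed over the 3 libraries, so the ratio in a single library can lie outside them. All intervals and the limit of 3 fragments for a count of 0 cover counting error only. Genes named are all members, the 2 highest and the lowest of each role of the wider list, the 5 nearest to Diap1 (1 of them is not reported here), and genes whose exons overlap a member; others were named after their values were seen. The members and lists were chosen with earlier results of these data known, and the neighbour order, the library ratios and their rescaling were added after seeing the data. Alternatives were other pseudocounts, limits, scalings and gene lengths, and each library left out. Software: scipy 1.17.1, pandas 2.3.3, numpy 2.4.6 and matplotlib 3.10.9 under Python 3.11.15.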

Additional observations from a re-analysis of the deposited data

How the results depend on the processing

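Of 64 alternative values of the 8 gene pairs (scaling, pseudocounts of 0.1 and 0.01, unshared bases as the length, each library left out), 62 kept the direction. Most of this count was fixed in advance. Scaling and pseudocounts cannot change which gene is higher within a library. Where a pair had the same sign in every library, leaving a library out could not reverse it either, so only the length setting could. Drice minus Dronc, 0.01 with all libraries, ran from -0.20 to 0.39 with 1 library left out; the cause was not tested. The count of detected genes among the 10 was 8, 5 at a limit of 5 FPKM, 6 at 2 FPKM or with at least 3 fragments in every library, 7 as TPM and 8 to 9 with 1 library left out (9 without replicate 1, where hid passed). The median level of the 10 genes, 3.48 on the log2 scale, was 2.58 as TPM, where the sums include the rRNA pseudogenes, and 2.88 to 3.75 with 1 library left out. Detected genes of the wider list numbered 44, and 31 to 47 over all alternatives. The ratios of replicate 2 to replicate 3 of 7 genes stayed on their side of 1 under 3 other scalings, which were chosen after seeing the data. This is no support, since a scaling shifts all genes alike, here by -0.15, 0.07 or 0.06 on the log2 scale. No ratio lay near enough to 1 to cross it. For replicate 3 over 1, where the TPM shift was 0.68, the ratios of Diap1 and Dredd did cross 1 (to 1.10 and 1.45). No paired analysis was possible because the samples form 1 group. Depth limits hid, Dcp-1 and grim most, with 11, 8 and 0 fragments.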
